A study of Mus musculus with 4 samples.

Results

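The genes of the vascular endothelial growth factor (VEGF) system were followed through 4 RNA sequencing libraries of mouse liver cells. The members were the rows of the gene count table whose Ensembl identifier maps to Vegfa, Vegfb, Vegfc, Pgf, Flt1, Kdr, Flt4, Nrp1 or Nrp2, which gave 9 genes out of 41128. There were 4 ligands, 3 receptors and 2 neuropilins, and all 9 were among the 21640 genes that reached 10 counts in any library. The cells came from C57BL/6 mice with experimental alcoholic hepatitis, which ate a high cholesterol fat diet for 40% of their calories. The other 60% was an alcohol liquid diet given into the stomach, and a weekly binge was added. Hepatocytes had been depleted by slow centrifugation and leukocytes by beads against CD45, a surface protein of leukocytes. The cells left over are the presorted CD45- cells. They were sorted further on Prom1 (CD133, a surface protein of progenitor and bile duct cells) and CD49f (integrin alpha 6). The sort gave Prom1+CD49f+CD45- cells, Prom1-CD49f+CD45- cells and a population labelled Prom1+CD49f+CD45+. All 4 populations had the same diet and alcohol, so there was no healthy liver to set them against. Each population had 1 library, made from RNA pooled from 2 mice, so no difference below has a replicate check and no test could be made.

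VEGF ligands are secreted proteins that act on receptor tyrosine kinases of endothelial cells, the cells that line blood and lymph vessels. VEGF-A, the product of Vegfa, signals mainly through VEGFR2 (Kdr) to drive endothelial growth, migration and permeability. VEGFR1 (Flt1) binds VEGF-A, VEGF-B and placental growth factor tightly but signals weakly, and a soluble form of it traps the ligands. VEGF-C acts on VEGFR3 (Flt4), which is known for its role in lymphatic vessels and is also present on the sinusoidal endothelium of the liver. The neuropilins are co-receptors that hold VEGF beside its receptor and also serve semaphorins, a family of guidance proteins. In the liver, VEGF-A from hepatocytes and bile duct cells is known to maintain the fenestrated sinusoidal endothelium and the vessels around bile ducts.

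The libraries held 30239541 gene counts for Prom1+CD49f+CD45- cells, 14670300 for Prom1-CD49f+CD45- cells, 23070004 for the Prom1+CD49f+CD45+ labelled library and 52294013 for presorted cells. Levels are given as scaled CPM, counts relative to the library's size after TMM scaling (trimmed mean of M values, which balances most genes between libraries), with an exact 95% Poisson interval in brackets. Intervals cover counting error only. A ratio between libraries counts as a call, higher or lower, if the exact 95% interval is beyond 2-fold from end to end. Prom1 was at 355 scaled CPM in Prom1+CD49f+CD45- cells, 31.1 in Prom1-CD49f+CD45- cells, 11.4 in the Prom1+CD49f+CD45+ labelled library and 67.1 in presorted cells. Itga6, the gene of CD49f, was at 72.9, 50.5, 127 and 110 in the same order. Ptprc, the gene of CD45, was at 6.33, 3.6, 14.5 and 21. The labelled library was thus the lowest in Prom1 and the highest in Itga6, and its Ptprc, though above that of the other sorted cells, was below that of the presorted cells depleted of CD45. It is called by its label throughout. Genes of smell and taste receptors, which liver cells should not use, had a 95th percentile of 0.817, 0.353, 1.09 and 0.045 scaled CPM across the libraries in the order above. A level at or under that value is read as background. Of these smell and taste receptor genes, 69.6%, 27.7%, 69.6% and 12.7% had a count in the libraries in that order. The limit is not adjusted for exon length, so it can be lenient for long genes such as those of the VEGF receptors.

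In mm10, the VEGF system is spread over 7 chromosomes. Vegfa (ENSMUSG00000023951.11) lies on chromosome 17 from 46016993 to 46032369 on the minus strand. Vegfb (ENSMUSG00000024962.8) lies on chromosome 19 from 6982473 to 6987651, minus strand. Vegfc (ENSMUSG00000031520.5) spans 54077606 to 54187096 of chromosome 8 on the plus strand, and Pgf (ENSMUSG00000004791.6) spans 85166635 to 85177790 of chromosome 12 on the minus strand. Of the receptors, Flt1 (ENSMUSG00000029648.8) and Kdr (ENSMUSG00000062960.7) are both on the minus strand of chromosome 5, at 147561604 to 147726011 and at 75932827 to 75978458. Flt4 (ENSMUSG00000020357.3) is on the plus strand of chromosome 11 at 49609263 to 49652739. Nrp1 (ENSMUSG00000025810.8) is on the plus strand of chromosome 8 at 128358604 to 128503363, and it contains Mir1903. Nrp2 (ENSMUSG00000025969.10) is on the plus strand of chromosome 1 at 62703285 to 62818695, where an antisense gene (Gm29083) and a further gene model (Gm37121) overlap it, so some of its reads are uncertain. Counts are per gene, so the secreted and membrane forms of Flt1 and the splice forms of Vegfa are summed.

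The 250 bases before the start of 4 members are shown, because Vegfa and the receptors stood at opposite ends of the comparison between the sorted populations. They are from RefSeq on GRCm38.p6, read 5′ to 3′ on the strand of the gene. The windows are chr17:46032378-46032627 for Vegfa, chr5:147726012-147726261 for Flt1 and chr5:75978456-75978705 for Kdr, all on the minus strand, and chr11:49609429-49609678 on the plus strand for Flt4. The RefSeq start lies 416 bases inside the GENCODE gene given above for Flt4, 3 bases inside it for Kdr and 8 bases before it for Vegfa, and is the same for Flt1. Capitals mark exact matches, on either strand, to a GC box (GGGCGG), a form of the ETS site (AGGAAG), a cyclic AMP response element (TGACGTCA) or a form of the GATA site (AGATAA). Other forms of these sites were not searched and can lie among the lower case letters.
Vegfa: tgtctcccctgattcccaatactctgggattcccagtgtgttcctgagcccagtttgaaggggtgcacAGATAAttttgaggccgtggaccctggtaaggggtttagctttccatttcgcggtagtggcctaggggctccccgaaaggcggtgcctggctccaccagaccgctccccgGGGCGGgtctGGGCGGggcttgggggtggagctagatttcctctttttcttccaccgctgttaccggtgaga
Flt1: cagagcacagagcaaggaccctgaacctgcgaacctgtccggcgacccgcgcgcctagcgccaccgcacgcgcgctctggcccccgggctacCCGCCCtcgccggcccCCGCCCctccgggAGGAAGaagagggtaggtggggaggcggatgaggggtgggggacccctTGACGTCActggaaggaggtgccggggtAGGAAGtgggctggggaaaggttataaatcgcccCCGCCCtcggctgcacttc
Kdr: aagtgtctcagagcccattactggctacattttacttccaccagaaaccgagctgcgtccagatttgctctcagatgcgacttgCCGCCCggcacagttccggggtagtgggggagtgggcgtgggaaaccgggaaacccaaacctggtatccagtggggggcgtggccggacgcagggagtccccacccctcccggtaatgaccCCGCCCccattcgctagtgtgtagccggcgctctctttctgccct
Flt4: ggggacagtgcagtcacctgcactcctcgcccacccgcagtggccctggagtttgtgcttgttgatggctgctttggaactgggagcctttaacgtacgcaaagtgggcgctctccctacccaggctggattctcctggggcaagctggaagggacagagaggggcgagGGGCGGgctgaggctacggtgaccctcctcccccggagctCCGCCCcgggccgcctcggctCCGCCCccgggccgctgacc
The Vegfa window held GC boxes 72 and 62 bases before the start and the GATA form 182 bases before it. In the Flt1 window there were GC boxes at 158, 142 and 19 bases, the ETS form at 129 and 53 bases, and the cyclic AMP response element at 81 bases before the start. Kdr had GC boxes at 166 and 45 bases, and Flt4 at 81, 41 and 20 bases. No matches of different motifs overlapped. A GC box was present in all 9 members, against 32.7% of the 32817 windows of the table. For each member the most upstream window was searched, while the share is over all distinct windows. The 4 windows shown were rich in G and C, from 59.2% for Vegfa to 70.4% for Flt1. No share was computed for windows of like makeup. The ETS form AGGAAG was found in Flt1 and Nrp1, against 29.5% of windows, and the cyclic AMP response element in Flt1, against 1.55%. The GATA form AGATAA was found in Vegfa, against 9.99%. ACGTG, a form of the hypoxia response core, was in none of the 9 windows, against 16.6% of all windows. That says only that these letters are not within these 250 bases, and the form GCGTG was not searched. The matches are a description of letters and not of binding.

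Vegfa was highest in the Prom1+CD49f+CD45- cells and Vegfc in the Prom1-CD49f+CD45- cells, and all 3 receptors and both neuropilins were lowest in the Prom1+CD49f+CD45- cells. The summed level of the 4 ligands was 291 scaled CPM in Prom1+CD49f+CD45- cells, 225 in Prom1-CD49f+CD45- cells, 49.4 in the Prom1+CD49f+CD45+ labelled library and 89.4 in presorted cells. For the receptors the sums were 31.2, 706, 4826 and 3532 in the same order, and for the neuropilins 55.5, 582, 2132 and 1550. Per kilobase of merged exons the ligand sums were 74.5, 89.4, 20.3 and 32, so the library highest in ligands was the Prom1+CD49f+CD45- one by scaled CPM and the Prom1-CD49f+CD45- one per kilobase. The receptor and neuropilin sums were lowest in Prom1+CD49f+CD45- cells on both scales. These are RNA levels of whole populations, in which fewer cells of a type and less RNA per cell cannot be told apart.

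**Figure D1:**
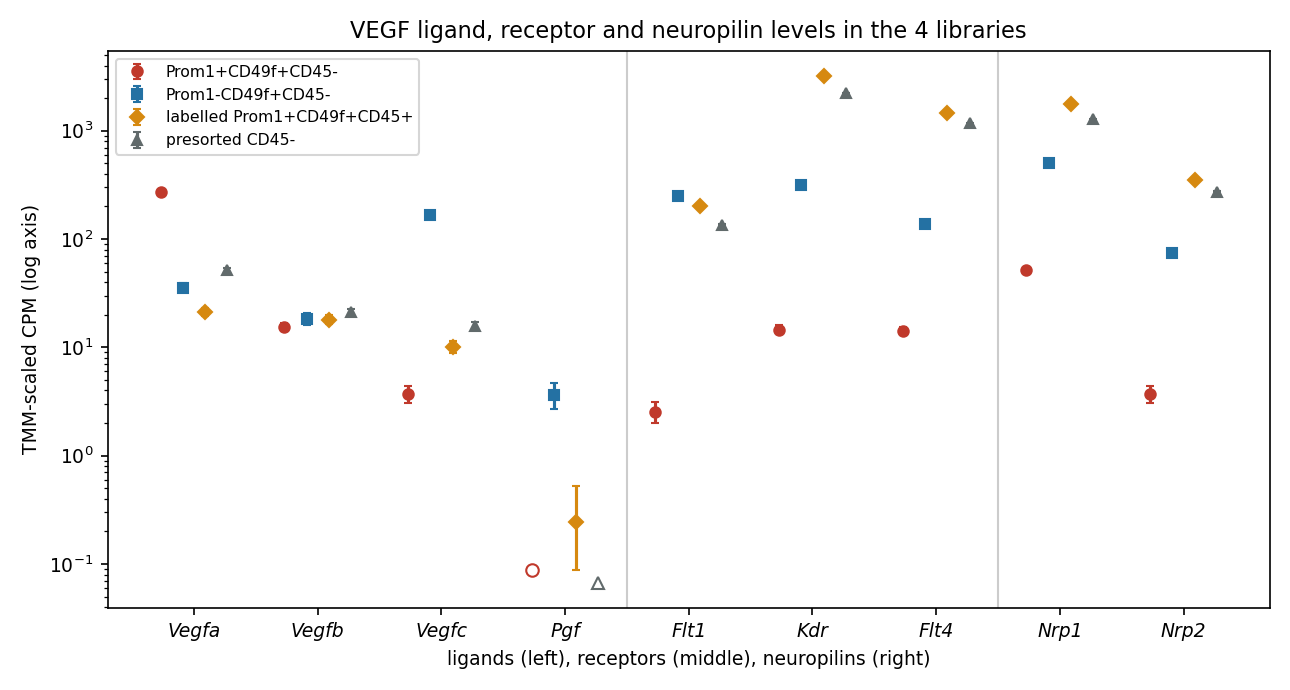
Levels of the 9 genes in each library, in TMM-scaled CPM on a log axis, with exact 95% Poisson intervals as bars. Open symbols mark libraries with 0 counts, drawn at the level of 3 counts. The Prom1+CD49f+CD45- library is the highest for Vegfa and the lowest for all 5 receptor and neuropilin genes.

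Among the ligands, Vegfa encodes the main growth factor of blood vessels. It had 272 (266 to 277) scaled CPM in Prom1+CD49f+CD45- cells, 35.7 (32.6 to 38.9) in Prom1-CD49f+CD45- cells, 21.1 (19.4 to 23) in the Prom1+CD49f+CD45+ labelled library and 52.1 (50 to 54.3) in presorted cells. The Prom1+CD49f+CD45- library stood apart above the other three, and the presorted library came next. No intervals overlapped. At 98.2, its percentile among the compared genes in Prom1+CD49f+CD45- cells placed it with the abundant transcripts of that library. Vegfa was called 7.62-fold higher (6.96 to 8.35) in Prom1+CD49f+CD45- cells than in Prom1-CD49f+CD45- cells, and 5.22-fold higher (4.98 to 5.46) than in presorted cells. Between Prom1-CD49f+CD45- and presorted cells it was 1.46-fold lower (1.33 to 1.61), which is not a call.

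Vegfc encodes VEGF-C, the ligand best known for the growth of lymphatic vessels. Its level was 3.68 (3.06 to 4.38) scaled CPM in Prom1+CD49f+CD45- cells, 168 (161 to 174) in Prom1-CD49f+CD45- cells, 10.1 (8.86 to 11.4) in the Prom1+CD49f+CD45+ labelled library and 15.9 (14.8 to 17.1) in presorted cells. A single library, that of the Prom1-CD49f+CD45- cells, held most of it, and no intervals overlapped. Vegfc was called 45.6-fold lower (38.1 to 54.9) in Prom1+CD49f+CD45- cells than in Prom1-CD49f+CD45- cells and 4.33-fold lower (3.58 to 5.28) than in presorted cells. In Prom1-CD49f+CD45- cells it was called 10.5-fold higher (9.66 to 11.5) than in presorted cells. Vegfa and Vegfc therefore had their highest level in different sorted populations.

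Pgf, the gene of placental growth factor, which binds VEGFR1 alone among the kinase receptors, was found in the same population as Vegfc. Its counts were 0 in Prom1+CD49f+CD45- cells, 51 in Prom1-CD49f+CD45- cells, 6 in the Prom1+CD49f+CD45+ labelled library and 0 in presorted cells. In Prom1-CD49f+CD45- cells that was 3.6 (2.68 to 4.74) scaled CPM. Set against a floor of 3 counts in the other library, it was at least 41.2-fold lower in Prom1+CD49f+CD45- cells than in Prom1-CD49f+CD45- cells, and at least 53.4-fold higher in Prom1-CD49f+CD45- cells than in the presorted cells. With the error of the 51 counts included, the exact 95% intervals of these ratios began at 32.3-fold lower and 41.9-fold higher. The floor corresponds to 0.0875 scaled CPM for Prom1+CD49f+CD45- cells and 0.0675 for presorted cells. The 0.242 scaled CPM in the Prom1+CD49f+CD45+ labelled library was under the background level of that library. The presorted library, the deepest of the 4, thus had 0 counts of a gene that a population sorted from those cells held at 3.6 scaled CPM.

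Vegfb encodes VEGF-B, a ligand of VEGFR1 known for its part in fatty acid uptake by endothelium. It was the member that varied least, at 15.3, 18.3, 18 and 21.4 scaled CPM in Prom1+CD49f+CD45- cells, Prom1-CD49f+CD45- cells, the Prom1+CD49f+CD45+ labelled library and presorted cells. The intervals of libraries next to each other in this order of levels all overlapped. The widest of the 6 ratios was between Prom1+CD49f+CD45- and presorted cells, 1.39-fold lower (1.25 to 1.55), and no ratio of Vegfb was a call. Vegfd, the remaining ligand of the family and no member of the set of 9, was at 0.204, 2.05, 0.282 and 0.585 scaled CPM in the order of libraries above. The values of the Prom1+CD49f+CD45- library and the Prom1+CD49f+CD45+ labelled library were under their background levels. Vegfd was called 10-fold lower (4.3 to 27.1) in Prom1+CD49f+CD45- cells than in Prom1-CD49f+CD45- cells.

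The receptors were abundant outside the Prom1+CD49f+CD45- cells. Kdr, the gene of the main signalling receptor, had 14.6 (13.4 to 16) scaled CPM in Prom1+CD49f+CD45- cells, 315 (306 to 325) in Prom1-CD49f+CD45- cells, 3175 (3153 to 3197) in the Prom1+CD49f+CD45+ labelled library and 2230 (2216 to 2244) in presorted cells. The order of libraries was the same for Flt4, the gene of VEGFR3, at 14.1, 138, 1447 and 1167 scaled CPM. Neither gene had overlapping intervals between libraries. Kdr was called 21.6-fold lower (19.7 to 23.7) in Prom1+CD49f+CD45- cells than in Prom1-CD49f+CD45- cells and 153-fold lower (140 to 167) than in presorted cells. Flt4 was called 9.83-fold lower (8.89 to 10.9) and 82.8-fold lower (75.7 to 90.7) in these comparisons. In Prom1-CD49f+CD45- cells, Kdr was called 7.07-fold lower (6.86 to 7.29) and Flt4 8.43-fold lower (8.06 to 8.82) than in presorted cells.

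Flt1, the gene of VEGFR1, had another order. Its level was 2.51 (2.01 to 3.1) scaled CPM in Prom1+CD49f+CD45- cells, 252 (244 to 261) in Prom1-CD49f+CD45- cells, 203 (198 to 209) in the Prom1+CD49f+CD45+ labelled library and 135 (132 to 139) in presorted cells. The highest level was that of the Prom1-CD49f+CD45- cells, where Kdr and Flt4 were lower than in every library but that of the Prom1+CD49f+CD45- cells. Between Prom1-CD49f+CD45- and presorted cells Flt1 was 1.86-fold higher (1.79 to 1.94), just short of a call, while Kdr and Flt4 were called lower. With libraries scaled by their totals it was 2.12-fold higher, and 2.42-fold higher in the authors' normalized values, both past the rule. In Prom1+CD49f+CD45- cells Flt1 was called 101-fold lower (81.2 to 126) than in Prom1-CD49f+CD45- cells and 54-fold lower (43.6 to 67.6) than in presorted cells. The ratio to Prom1-CD49f+CD45- cells rests on 86 counts in the Prom1+CD49f+CD45- library and 3573 in the Prom1-CD49f+CD45- library.

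The neuropilins followed the order of Kdr and Flt4. Nrp1 encodes neuropilin-1, the co-receptor of VEGF-A and VEGFR2. It was at 51.8 scaled CPM in Prom1+CD49f+CD45- cells, 508 in Prom1-CD49f+CD45- cells, 1780 in the Prom1+CD49f+CD45+ labelled library and 1278 in presorted cells. Nrp2 encodes neuropilin-2, a partner of VEGFR3, and was at 3.71, 74, 352 and 272 scaled CPM in the same order. For both genes the 4 intervals lay apart. Nrp1 was called 9.81-fold lower (9.31 to 10.3) in Prom1+CD49f+CD45- cells than in Prom1-CD49f+CD45- cells and 24.7-fold lower (23.6 to 25.9) than in presorted cells, and Nrp2 20-fold lower (16.6 to 24.2) and 73.4-fold lower (61.7 to 88.2). In Prom1-CD49f+CD45- cells Nrp1 was called 2.52-fold lower (2.46 to 2.58) and Nrp2 3.68-fold lower (3.45 to 3.92) than in presorted cells. The call of Nrp1 in that comparison was lost in the authors' normalized values, at 1.94-fold lower, and after removal of a trend with transcript length, at 2.05-fold lower. Per kilobase of exon, Nrp1 had the highest level of the 5 receptor and neuropilin genes in Prom1+CD49f+CD45- cells, at 5.29 scaled CPM per kilobase, with Flt4 next at 1.71.

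Prom1+CD49f+CD45- against Prom1-CD49f+CD45- cells asks what goes with surface Prom1 among CD49f+CD45- cells. Of the 9 members, 1 was called higher (Vegfa) and 7 were called lower, while Vegfb was no call. Of all 21640 compared genes, 15.5% were called higher and 12.7% lower. The median log2 ratio of the members was -3.81 over the 8 with counts in both libraries, or -4.32 with Pgf at its bound, against 0.34 over all genes. Scaling by library totals moved the median of all genes to 0.57 and that by DESeq2 size factors to 0.20, with 66.9% and 46.8% of all calls higher, against 54.8% as reported. The 7 members called lower were Vegfc, Pgf, Flt1, Kdr, Flt4, Nrp1 and Nrp2, and their folds ran from 9.81 for Nrp1 to 101 for Flt1.

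Prom1+CD49f+CD45- against presorted cells asks what the sort enriched or removed. Vegfa was again the 1 member called higher, and 6 were called lower, while Vegfb was no call and Pgf had 0 counts in both libraries. Among all genes 27.6% were called higher and 15.6% lower. The members' median log2 ratio was -5.19, against 0.00 over all genes. The folds of the 6 lower members ran from 4.33 for Vegfc to 153 for Kdr.

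For Prom1-CD49f+CD45- against presorted cells the members were split. Vegfc and Pgf were called higher and Kdr, Flt4, Nrp1 and Nrp2 lower, which made 2 and 4 of 9, where 9.78% of all genes were called higher and 14.1% lower. The share of calls that were higher was 40.9% over all genes, but 52.5% with scaling by library totals and 65.6% in the authors' normalized values. The members' median log2 ratio was -0.94, or -0.55 with Pgf at its bound, against -0.15 over all genes. The 3 comparisons named so far share libraries and are not independent of each other.

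**Figure D2:**
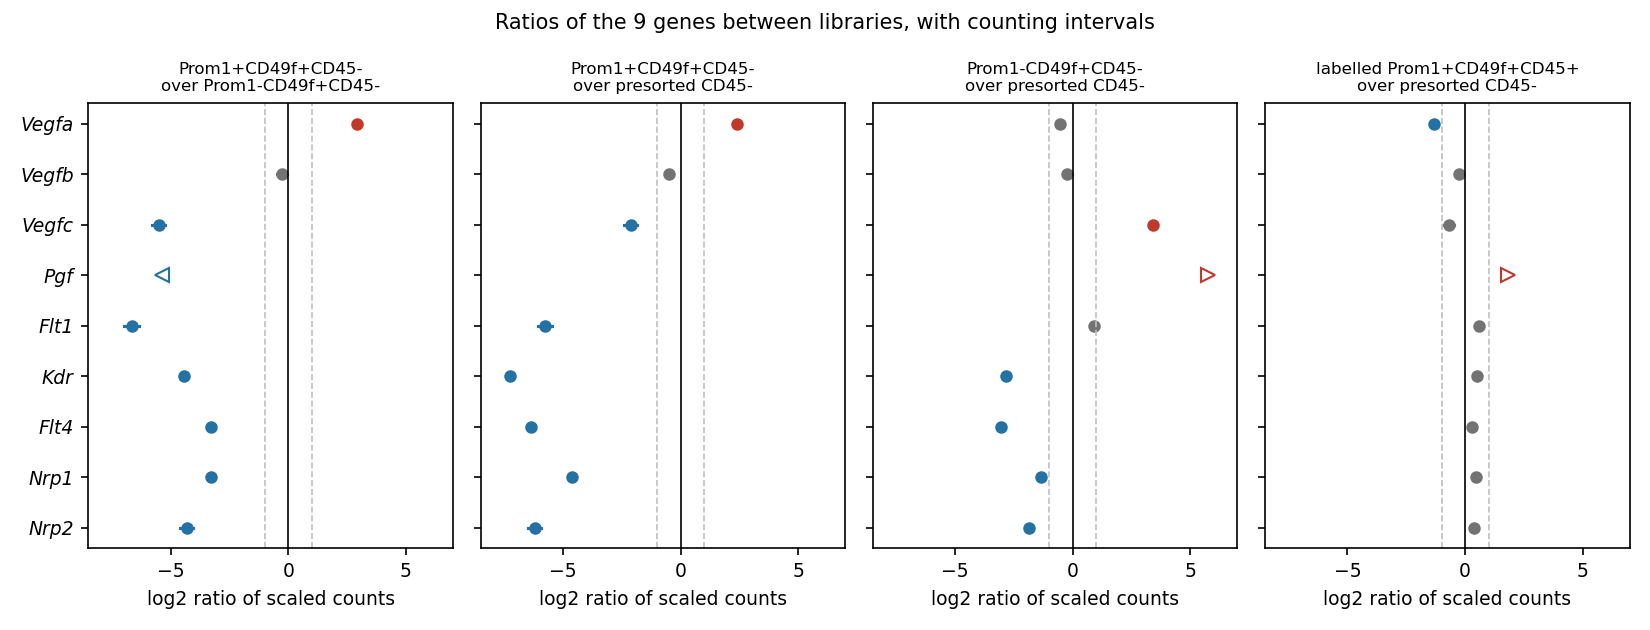
Log2 ratios of the 9 genes in 4 comparisons, with exact 95% intervals as bars (mostly hidden by the points). Red points were called higher, blue points lower and grey points not called, dashed lines mark 2-fold, and open triangles are bounds for Pgf against a floor of 3 counts. Vegfa alone lies to the right in both comparisons of Prom1+CD49f+CD45- cells, and Vegfc and Pgf in that of Prom1-CD49f+CD45- against presorted cells.

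The Prom1+CD49f+CD45+ labelled library differed little from the presorted cells in these genes. Vegfa was called 2.46-fold lower (2.24 to 2.71), and it was no longer called with scaling by library totals, at 1.95-fold lower. Pgf was called higher on 6 counts against 0, at a level under the background of the labelled library. That made 1 member higher and 1 lower of 9, with 23.8% of all genes called higher and 12.1% lower, so neither count stood above the background. Flt1 was 1.5-fold, Kdr 1.42-fold, Nrp1 1.39-fold, Nrp2 1.29-fold and Flt4 1.24-fold higher, and none of the 5 was a call. Against this library, Prom1+CD49f+CD45- cells had 1 member called higher and 6 lower, where 12.5% and 13.1% of all genes were called. Of those calls 48.9% were higher, but 35.5% in the authors' normalized values. In that comparison Vegfa was 12.9-fold higher (11.8 to 14.1) and Kdr 217-fold lower (199 to 238), the widest ratio of any member in the 6 comparisons. Prom1-CD49f+CD45- cells had 2 members called higher and 4 lower than the labelled library, where 13% and 17.7% of all genes were called. Of those calls 42.2% were higher, but 53.9% with DESeq2 size factors. The 2 were Vegfc, 16.6-fold higher (14.6 to 19), and Pgf, 14.9-fold higher (6.4 to 42.5). Kdr was 10.1-fold lower (9.77 to 10.4) and Flt4 10.5-fold lower (9.99 to 10.9), while Flt1, at 1.24-fold higher (1.19 to 1.3), was no call.

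Ratios of genes within a library do not depend on the scaling between libraries. Levels are compared between genes per kilobase of merged exons. The title of the series mentions Quant-seq, in which reads come from the 3' end and do not grow with transcript length, and the labels' protocol names a stranded messenger RNA kit, so shares are also given without that step. Per kilobase, Vegfa made up 85.1% of the summed ligand level in Prom1+CD49f+CD45- cells, 9.32% in Prom1-CD49f+CD45- cells, 24.3% in the Prom1+CD49f+CD45+ labelled library and 38% in presorted cells. As a share of ligand reads it was 93.5% (93 to 93.9, exact binomial), 15.9% (14.6 to 17.2), 42.8% (40 to 45.6) and 58.3% (56.7 to 59.8). Vegfc made up 2.02%, 76.5%, 20.2% and 20.3% of the ligand level per kilobase in the same order. Of the CD49f+CD45- populations, the Prom1+ one thus had mostly Vegfa and the Prom1- one mostly Vegfc, while in the library labelled Prom1+CD49f+CD45+ Vegfa was under 50% of the ligands on both scales.

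**Figure D3:**
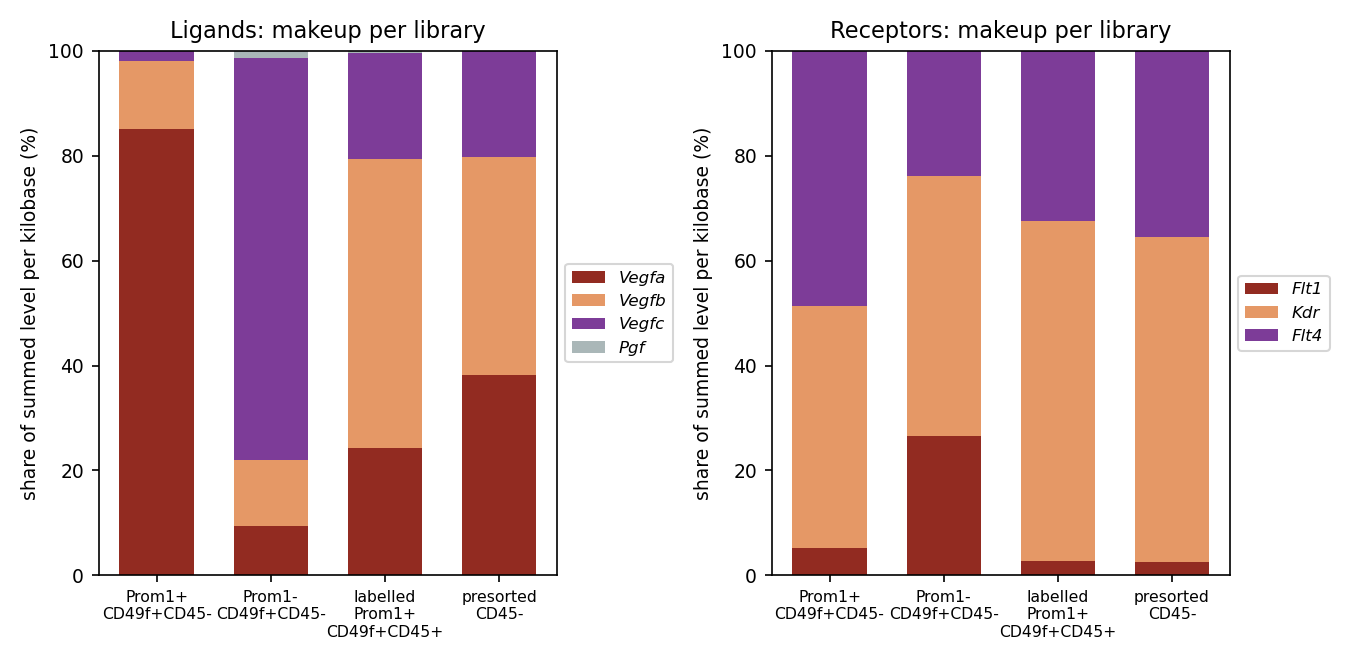
Makeup of the ligands (left) and the receptors (right) in each library, as the percentage of the summed level per kilobase of merged exons. Vegfa fills 85.1% of the ligand bar of Prom1+CD49f+CD45- cells and Vegfc 76.5% of that of Prom1-CD49f+CD45- cells, where Flt1 takes 26.5% of the receptors.

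Among the receptors, Flt1 held 5.28% of the summed level per kilobase in Prom1+CD49f+CD45- cells, 26.5% in Prom1-CD49f+CD45- cells, 2.77% in the Prom1+CD49f+CD45+ labelled library and 2.51% in presorted cells. Kdr held 46%, 49.6%, 64.8% and 61.9%, and Flt4 48.7%, 23.9%, 32.4% and 35.6%. The ratio of Kdr to Flt1 per kilobase was 8.71 (6.92 to 11.1) in Prom1+CD49f+CD45- cells, 1.87 (1.79 to 1.95) in Prom1-CD49f+CD45- cells, 23.4 (22.7 to 24) in the Prom1+CD49f+CD45+ labelled library and 24.6 (24 to 25.3) in presorted cells. The signalling receptor thus outnumbered the weakly signalling one least in Prom1-CD49f+CD45- cells, and the intervals of that library and of the Prom1+CD49f+CD45- cells lay apart from each other and from the remaining pair. In Prom1+CD49f+CD45- cells the ratio rests on 86 counts of Flt1, at 0.186 scaled CPM per kilobase. The part of background reads in that level was not tested, and counting intervals do not cover it. Nrp1 exceeded Nrp2 per kilobase in every library, by 16.9-fold, 8.31-fold, 6.12-fold and 5.68-fold in the same order. The ratio of 16.9 rests on 127 counts of Nrp2. Vegfa exceeded Kdr per kilobase in Prom1+CD49f+CD45- cells alone, with a ratio of 39.2 (35.8 to 42.9), against 0.238 in Prom1-CD49f+CD45- cells, 0.014 in the Prom1+CD49f+CD45+ labelled library and 0.0492 in presorted cells.

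The summed levels of endothelial marker genes were lowest in the Prom1+CD49f+CD45- cells, as were those of the receptors and neuropilins. The summed level of 12 pan-endothelial markers was 90.9 scaled CPM in Prom1+CD49f+CD45- cells, 4636 in Prom1-CD49f+CD45- cells, 6814 in the Prom1+CD49f+CD45+ labelled library and 5087 in presorted cells. All 12 were called lower in Prom1+CD49f+CD45- cells than in Prom1-CD49f+CD45- cells and none was at 0 counts in any library, though 1 of them was under the background level in Prom1+CD49f+CD45- cells. The leading genes of that list were Eng, a co-receptor of bone morphogenetic proteins, the junction gene Esam, and Egfl7, a secreted endothelial protein, at 5.43, 5.89 and 35.7 scaled CPM in Prom1+CD49f+CD45- cells. The 12 sinusoidal markers summed to 161, 6224, 21432 and 15833 in the same order, led by Stab2, Clec4g and Gpr182, and the 12 venous and arterial markers to 78.4, 5834, 2510 and 2299, led by Gja4, Cd34 and Plvap. Between Prom1-CD49f+CD45- and presorted cells the lists differed. Of 12 pan-endothelial markers, 2 were called higher and 3 lower in Prom1-CD49f+CD45- cells. Of 12 sinusoidal markers, 8 were called lower and none higher, where Kdr, Flt4, Nrp1 and Nrp2 were lower too. In that comparison 8 of 12 venous and arterial markers were called higher and none lower. Of all genes 9.78% were called higher and 14.1% lower there, and 12.7% were lower in Prom1+CD49f+CD45- against Prom1-CD49f+CD45- cells. The lymphatic list, summed over its 9 genes other than Flt4, was at 440, 3204, 871 and 742, with Ccl21a, a chemokine of lymphatic vessels and lymphoid stroma, at 5.66, 2473, 6.89 and 21.4. The part of endothelial cell numbers in the levels of the receptors, and of vessel type in those of Vegfc and Flt1, was not tested.

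Bile duct (cholangiocyte) markers were highest in the population that was highest in Vegfa. Their 12 genes summed to 24114 scaled CPM in Prom1+CD49f+CD45- cells, 9186 in Prom1-CD49f+CD45- cells, 417 in the Prom1+CD49f+CD45+ labelled library and 3900 in presorted cells, with none at 0 counts. The leaders were Spp1 (osteopontin), at 19684, 8189, 309 and 3103, the E-cadherin gene Cdh1, at 2132, 183, 33.8 and 373, and Epcam, at 670, 274, 10.4 and 107. In Prom1+CD49f+CD45- against Prom1-CD49f+CD45- cells, 9 of the 12 were called higher and none lower, and against presorted cells 11 of 12 and none. The shares of all genes called higher in these comparisons were 15.5% and 27.6%. The Prom1-CD49f+CD45- cells had the next highest cholangiocyte sum, but Spp1 alone held 8189 of its 9186. Against presorted cells, 5 of the 12 were called higher in Prom1-CD49f+CD45- cells and 1 lower. Of all genes 9.78% were called higher and 14.1% lower in that comparison. Vegfa was at 35.7 scaled CPM in Prom1-CD49f+CD45- cells and 52.1 in presorted cells. How far the share of bile duct cells sets the level of Vegfa was not tested.

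**Figure D4:**
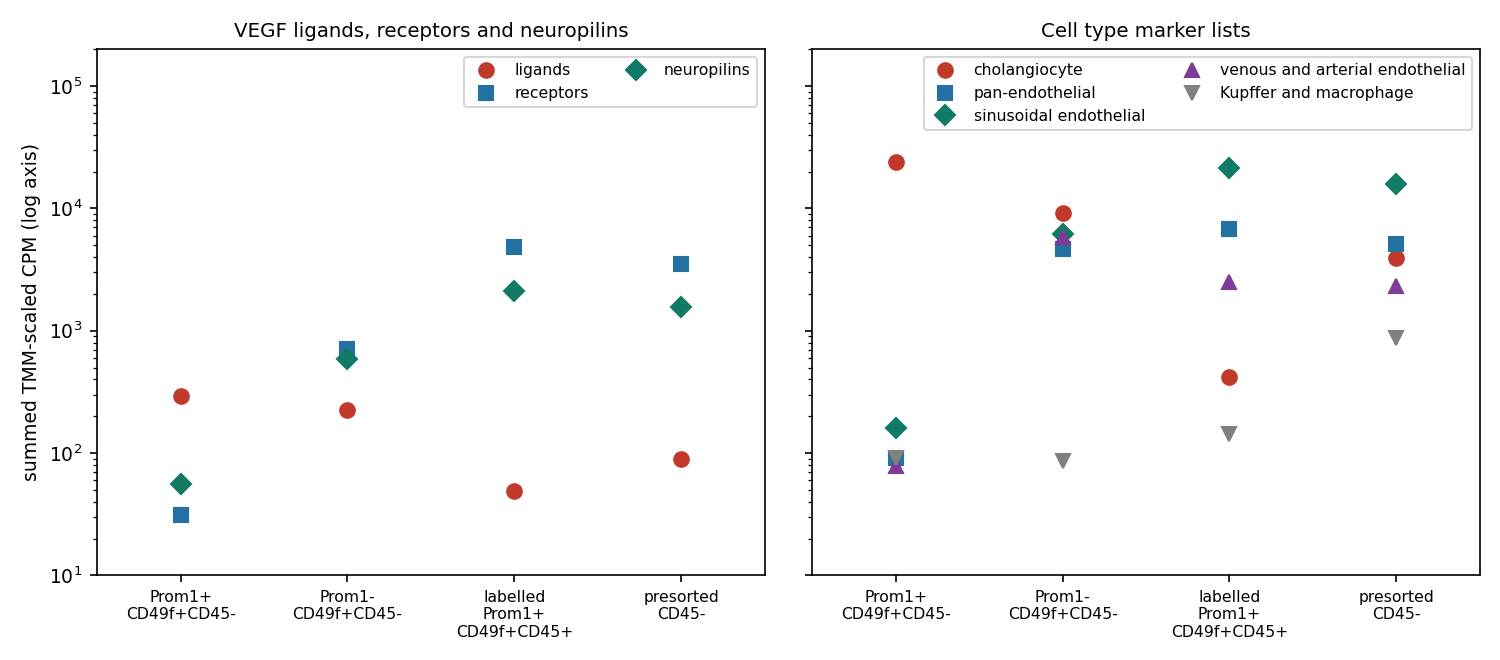
Summed TMM-scaled CPM on log axes, of the 4 ligands, 3 receptors and 2 neuropilins (left) and of cell type marker lists (right), 1 point per library. Receptors and neuropilins are lowest in Prom1+CD49f+CD45- cells, at 31.2 and 55.5, where the pan-endothelial sum is 90.9 and the cholangiocyte sum is 24114.

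Each member was set beside the genes whose profile over the 4 libraries was nearest to its own, by the root mean square difference of centred log2(scaled CPM + 0.5), among 12880 genes. Kdr was nearest to Stab2, at 0.060 log2 units, then Plxnc1 at 0.144 and Tmem132e at 0.191. Flt4 was nearest to Pcdh12 at 0.163, then Cnr2 and Kit. For Flt1 they were Ccm2l at 0.069, Gpihbp1 and Wnt2. Nrp1 was nearest to Rnf157 at 0.108, then Tmc8 and Sema6d, and Nrp2 to Ttc7b at 0.030, then Esm1 and Sh3tc1. Among the ligands, Vegfa was nearest to Nfatc2 at 0.050, Plekhh2 and Fgfr3, and Vegfb to Leprotl1 at 0.016, Lzic and Mppe1. Vegfc had the most distant neighbours, Chp2 at 0.282, Tspan13 and Bmx, and Pgf was nearest to Stc2 at 0.107, Tnni3 and Pgm5. With 4 libraries such a likeness describes these profiles only, and 13 and 12 of the 27 genes were also found with pseudocounts of 0.1 and 2.

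The wider pathway was read from lists of its known genes, whose counts stand beside the shares of all genes called. In Prom1+CD49f+CD45- against Prom1-CD49f+CD45- cells 15.5% of all genes were called higher and 12.7% lower. Against presorted cells the shares were 27.6% and 15.6% for Prom1+CD49f+CD45- cells and 9.78% and 14.1% for Prom1-CD49f+CD45- cells. Of the 7 class 3 semaphorins, the neuropilin ligands that compete with VEGF or guide vessels, 3 were called higher and 4 lower in Prom1+CD49f+CD45- cells than in Prom1-CD49f+CD45- cells, and 3 and 2 against presorted cells. The counts against Prom1-CD49f+CD45- cells became 3 and 3 with library totals, and those against presorted cells 3 and 3 in the authors' normalized values. Sema3c had 155 scaled CPM in Prom1+CD49f+CD45- cells, 29 in Prom1-CD49f+CD45- cells, 3.63 in the Prom1+CD49f+CD45+ labelled library and 32.7 in presorted cells, and was 5.37-fold higher (4.85 to 5.95) in Prom1+CD49f+CD45- cells than in Prom1-CD49f+CD45- cells. Its levels ranked the libraries in the same order as those of Vegfa. Sema3b was at 28.2, 4.8, 0.443 and 5.58 in the same order, 5.87-fold higher (4.59 to 7.62). Sema3f was at 50.9, 119, 207 and 228, 2.33-fold lower (2.18 to 2.49), and Sema3d at 2.57, 19.4, 19.5 and 14.6, 7.57-fold lower (5.93 to 9.73).

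Plexins carry the semaphorin signal beside neuropilins, and 1 of 5 was called higher and 3 lower in Prom1+CD49f+CD45- cells than in Prom1-CD49f+CD45- cells, with the same counts against presorted cells. Plxnd1, the plexin of endothelium, was at 9.69, 179, 524 and 373 scaled CPM in Prom1+CD49f+CD45- cells, Prom1-CD49f+CD45- cells, the Prom1+CD49f+CD45+ labelled library and presorted cells, 18.5-fold lower (16.5 to 20.8) in Prom1+CD49f+CD45- cells than in Prom1-CD49f+CD45- cells. Plxna2 was 3.34-fold lower (2.97 to 3.76) and Plxna4 5.86-fold lower (4.67 to 7.4), while Plxna1 was no call. Plxna3 was the exception at 26.7, 2.12, 1.33 and 2.61, 12.6-fold higher (8.77 to 18.8).

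Phosphatases, adaptors and traffic proteins that act on VEGF receptors were mixed. Of 24, 7 were called higher and 8 lower in Prom1+CD49f+CD45- cells than in Prom1-CD49f+CD45- cells, a balance that turned to 8 and 7 with library totals, and 3 and 8 against presorted cells. Ptprb, the endothelial phosphatase VE-PTP that restrains VEGFR2 and Tie2, was at 14.6, 921, 2478 and 1397 scaled CPM in Prom1+CD49f+CD45- cells, Prom1-CD49f+CD45- cells, the Prom1+CD49f+CD45+ labelled library and presorted cells, 62.8-fold lower (57.5 to 68.8). Dab2, an adaptor of receptor uptake, was 3.97-fold lower (3.79 to 4.16), and Ephb4, a receptor of venous endothelium, 2.13-fold lower (2.03 to 2.23). Rab11a, which recycles membrane proteins, was at 186, 521, 258 and 238 and 2.8-fold lower (2.7 to 2.89). The integrin gene Itgav was called higher, at 211 in Prom1+CD49f+CD45- and 38.8 in Prom1-CD49f+CD45- cells, as was Myo6, a motor of endosomes, at 111 and 44.3. Genes that relay the signal inside the cell were called higher in 5 of 32 and lower in 7 in this comparison. Of all genes 15.5% were called higher and 12.7% lower there. The relay counts became 10 and 6 with library totals. Many of these kinases and small GTPases are used by all cell types. Fyn, a Src family kinase, was at 4.08, 179, 594 and 420 scaled CPM and 43.9-fold lower (37 to 52.4), and Rac1 was 2.12-fold lower (2.05 to 2.18), while Cdc42 and Akt1 were no calls. Akt2, at 64.2 in Prom1+CD49f+CD45- and 27.6 in Prom1-CD49f+CD45- cells, was among the 5 called higher.

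Genes known to be induced by VEGF in endothelium, a list that holds Flt1, were called lower in 11 of 20 and higher in 3 in Prom1+CD49f+CD45- cells than in Prom1-CD49f+CD45- cells, and lower in 10 and higher in 3 against presorted cells. Their median log2 ratio was -1.76, against 0.34 over all genes. Cd34, a surface protein of endothelium, was at 3.62, 318, 362 and 312 scaled CPM in Prom1+CD49f+CD45- cells, Prom1-CD49f+CD45- cells, the Prom1+CD49f+CD45+ labelled library and presorted cells, 88-fold lower (73.6 to 106). It is also among the venous and arterial markers summed above, so these lists are not separate. Adamts1, a secreted protease, was no call at 109 scaled CPM in Prom1+CD49f+CD45- and 176 in Prom1-CD49f+CD45- cells, and neither were Mmp14 and Vcam1. Among the 3 called higher were F3 (tissue factor), at 122 in Prom1+CD49f+CD45- and 55.2 in Prom1-CD49f+CD45- cells, and the early response gene Nr4a1, at 83.9 and 32.2. In Prom1-CD49f+CD45- against presorted cells 2 were called higher and 2 lower, but 5 and 2 with library totals and 7 and 1 in the authors' normalized values. These genes are also used by resting endothelium, and the endothelial marker sums given above moved the same way between Prom1+CD49f+CD45- and Prom1-CD49f+CD45- cells. Their part in the counts was not tested.

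Oxygen is the best known control of Vegfa. Of 9 genes of oxygen sensing, 2 were called higher and 1 lower in Prom1+CD49f+CD45- cells than in Prom1-CD49f+CD45- cells, and 1 and 2 against presorted cells. The shares of all genes in these comparisons were 15.5% and 12.7%, and 27.6% and 15.6%. The counts of oxygen sensing genes against Prom1-CD49f+CD45- cells became 1 and 1 with DESeq2 size factors, and those against presorted cells 1 and 1 with library totals. Hif1a, the oxygen-regulated factor that acts on Vegfa, was at 113, 68.9, 151 and 149 scaled CPM in Prom1+CD49f+CD45- cells, Prom1-CD49f+CD45- cells, the Prom1+CD49f+CD45+ labelled library and presorted cells, no call in the comparisons of Prom1+CD49f+CD45- cells. It is regulated mainly as a protein, which these data do not measure. Epas1, the gene of HIF-2 alpha, was at 38.6, 228, 264 and 197 and 5.91-fold lower (5.54 to 6.3) in Prom1+CD49f+CD45- cells than in Prom1-CD49f+CD45- cells, and Arnt, the partner of both, 2.39-fold higher (2.14 to 2.67). Hif1an, which restrains these factors when oxygen is present, was 4.53-fold higher (3.82 to 5.4). Of 23 genes known to be induced by low oxygen, 3 were called higher and 7 lower in that comparison, where Vegfa was called higher, and 2 and 7 against presorted cells. Their median log2 ratio was -0.46, against 0.34 over all genes. The glycolysis gene Ldha was at 192, 584, 344 and 708, 3.04-fold lower (2.94 to 3.14), while Eno1, at 1095, 695, 262 and 812, Aldoa and Bnip3l were no calls. Slc2a1, the glucose transporter GLUT1, and Pfkfb3, a regulator of glycolysis, were among the 3 called higher. They were at 53.6 and 48.6 scaled CPM in Prom1+CD49f+CD45- cells, against 20.1 and 16.3 in Prom1-CD49f+CD45- cells. With library totals the counts were 5 and 5.

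Other angiogenic ligands and receptors were mostly lower in the Prom1+CD49f+CD45- cells. Of 17 compared, 2 were called higher and 10 lower in Prom1+CD49f+CD45- cells than in Prom1-CD49f+CD45- cells, and 4 and 10 against presorted cells. Angpt1, the ligand that activates Tie2, was at 109 scaled CPM in Prom1+CD49f+CD45- cells, 11.9 in Prom1-CD49f+CD45- cells, 3.87 in the Prom1+CD49f+CD45+ labelled library and 15.6 in presorted cells, 9.09-fold higher (7.79 to 10.7) in Prom1+CD49f+CD45- cells than in Prom1-CD49f+CD45- cells. Its receptor gene Tek (Tie2) was at 5.63, 318, 825 and 637 in that order, 56.4-fold lower (48.9 to 65.5). The Notch ligand gene Jag1 was at 506, 165, 102 and 190, 3.08-fold higher (2.95 to 3.22). Tie1 was 44.8-fold lower (39 to 51.7), Eng 30.3-fold lower (26.1 to 35.3) and Robo4, an endothelial guidance receptor, 42.3-fold lower (35.1 to 51.4). Tek, Tie1, Eng and Robo4 are also on the pan-endothelial marker list above, so their calls repeat calls counted there. Apln, Aplnr and Angpt2 are also on the list of genes induced by VEGF. For Angpt1 and Tek, as for Vegfa and Kdr, the ligand was thus highest and the receptor lowest in the Prom1+CD49f+CD45- library. In Prom1-CD49f+CD45- against presorted cells 1 of the 17 was called higher and 4 lower, a balance that became 3 and 3 with library totals and 4 and 4 in the authors' normalized values.

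**Figure D5:**
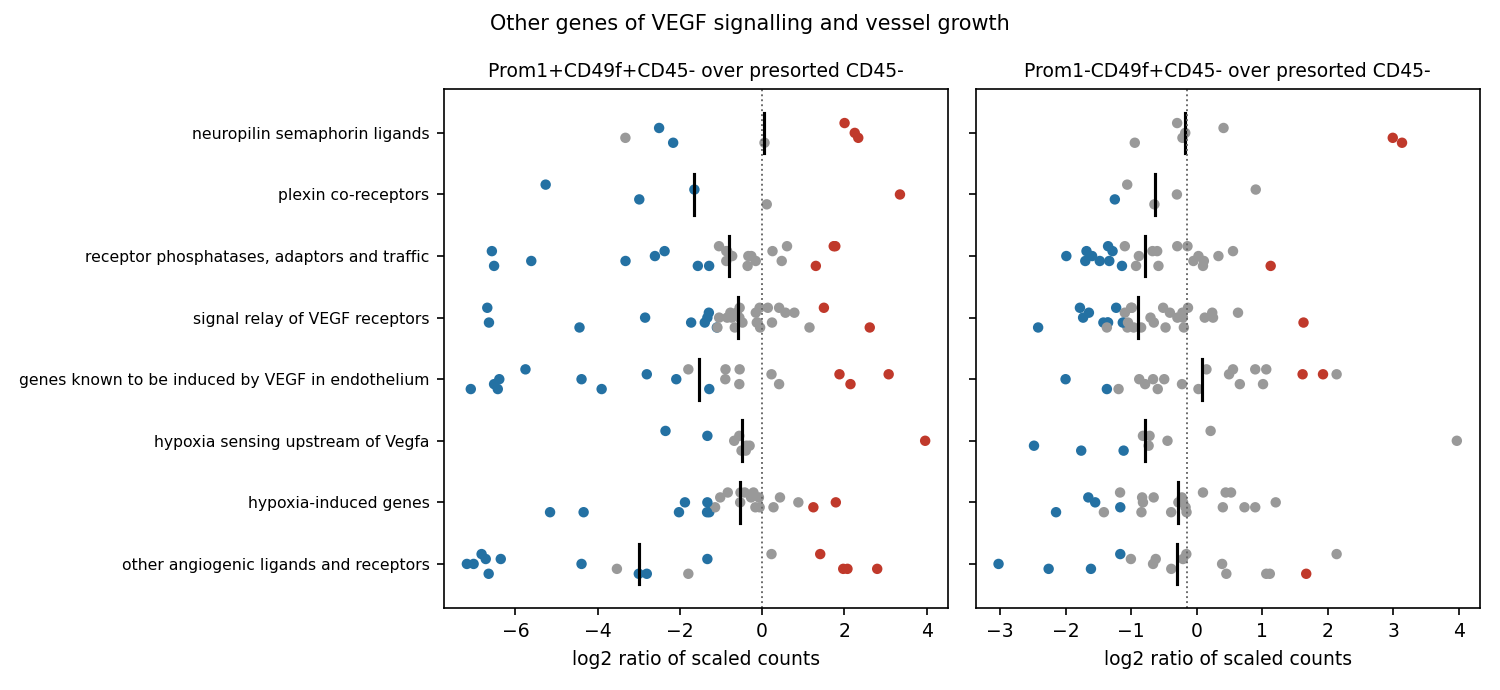
Log2 ratios of the genes on 8 lists of VEGF signalling and vessel growth, in Prom1+CD49f+CD45- (left) and Prom1-CD49f+CD45- cells (right) over presorted cells. Each point is a gene with counts in both libraries, red where called higher, blue where lower and grey where not called, black bars are list medians and dotted lines the median of all genes. On the left, 10 of 17 genes of the lowest list (other angiogenic ligands and receptors) were called lower and 4 higher.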

How the data were processed

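RNA was measured in 4 libraries, 1 per population and 2 mice pooled in each, polyA-selected with a stranded kit and a number of amplification cycles that varied with input, per the labels' protocols. A deposited table held the authors' estimated counts (50.5% to 60.5% of the entries of a library were whole) and the other the authors' normalized values, which were CPM with 1 added. Summed gene counts were 67.1%, 88.4%, 82.4% and 77.3% of the authors' CPM divisor in the order of the report. TopHat2, Partek 3 and mm10 are named in the submitters' processing notes, and the handling of strand in counting is not stated there. The column named only CD45 was taken as the presorted cells, the one population without a sort number in the design text. 0 columns of sample values were left unused.

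The estimated counts were rounded, then scaled with TMM in edgeR 4.0.16 (R 4.3.3), with factors from the 21640 genes that reached 10 counts in any library. Positions, symbols (40254 of 41128 identifiers) and exon lengths are from GENCODE vM21. Ratios have exact 95% conditional binomial (Clopper-Pearson) intervals from scipy 1.17.1, with a floor of 3 counts for a library at 0. Reads amplified without molecular identifiers are not independent, so intervals can be too narrow. The steps were checked on simulated Poisson counts with known changes. Such counts hold no amplified copies and no spread between mice, so this checks the computation and not the calls. Other settings were DESeq2 1.42.0 size factors, library totals, the authors' deposited CPM, other fold and count limits, a transcript length trend removed, and rounding down. Scaling without the Prom1+CD49f+CD45+ labelled library was added after the data were seen.

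Members and lists were chosen with earlier results of these data known. Named genes are the 9 members, the 4 highest genes by mean level of each pathway list with up to 2 called against its main direction, the 3 highest of each marker list, and the 3 nearest profiles per member. Some genes that meet the rule are left unnamed. The value of 1 marker gene is not reported here.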

Additional observations from a re-analysis of the deposited data

How the results depend on the processing

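No paired analysis was possible because each population had 1 library. Of 245 log2 ratios of the members recomputed with other scalings, a length trend removed or counts rounded down, 129 stayed within the interval of the reported ratio, 116 moved outside it, and 0 of those called changed sign. All 9 members kept their highest library with DESeq2 size factors, and 8 did with library totals and in the authors' normalized values, Vegfb excepted. Vegfc in Prom1+CD49f+CD45- against the Prom1+CD49f+CD45+ labelled library, and Nrp1 in Prom1-CD49f+CD45- against presorted cells, were no longer called when the interval had to lie beyond 3-fold. Scaling without the labelled library leaves the ratios among the other libraries as they were by the way TMM is built, so it tests nothing. For that library against presorted cells, 0 members were called higher with DESeq2 size factors, 2 in the authors' normalized values, 6 with intervals beyond 1-fold and 0 beyond 3-fold. Those called lower were 0 with library totals, 0 in the authors' values, 3 beyond 1-fold and 0 beyond 3-fold. Against it, 4 members were higher in Prom1-CD49f+CD45- cells beyond 1-fold.

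Counts over all genes moved more. In Prom1+CD49f+CD45- against Prom1-CD49f+CD45- cells they were 7048 higher and 4561 lower in the authors' values, 9114 and 6387 beyond 1-fold, and 1496 and 1723 beyond 3-fold. Against presorted cells, Prom1+CD49f+CD45- cells had 10020 higher and 8213 lower beyond 1-fold and 3094 higher with at least 50 counts, where 49.8% of calls were higher, against 63.8% as reported. Prom1-CD49f+CD45- cells had 7088 higher in the authors' values, 6836 higher and 7534 lower beyond 1-fold, 1070 and 1395 beyond 3-fold, and 1391 higher with at least 50 counts. The Prom1+CD49f+CD45+ labelled library had 9487 higher and 7766 lower beyond 1-fold, and 1788 higher with at least 50 counts. Against that library, Prom1+CD49f+CD45- cells had 6080 lower in the authors' values. They had 6639 higher and 8382 lower beyond 1-fold and 1863 lower beyond 3-fold. Prom1-CD49f+CD45- cells had 8378 lower in the authors' values, 6492 higher and 9781 lower beyond 1-fold, and 1536 and 1629 beyond 3-fold. The cause was not tested. Library totals moved the median log2 ratio of all genes to 0.41 in Prom1+CD49f+CD45- against presorted cells, to 0.31 in the labelled library against presorted cells and to -0.50 in Prom1-CD49f+CD45- cells against the labelled library, where it was 0.00, -0.03 and -0.34 as reported. The authors' values moved it to 0.22, 0.41 and -0.41 in these, and to 0.22 in Prom1-CD49f+CD45- against presorted cells, where it was -0.15, and to -0.39 in Prom1+CD49f+CD45- cells against the labelled library, where it was -0.17.

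Shares of reads and shares per kilobase differed most for Vegfa, by up to the 58.3% of reads against 38% per kilobase in presorted cells. The share of Flt1 in receptor reads was 8.04%, 35.7%, 4.21% and 3.83% in Prom1+CD49f+CD45- cells, Prom1-CD49f+CD45- cells, the Prom1+CD49f+CD45+ labelled library and presorted cells, against 5.28%, 26.5%, 2.77% and 2.51% per kilobase. In the same order, Kdr had 46.8%, 44.7%, 65.8% and 63.1% of reads, against 46%, 49.6%, 64.8% and 61.9% per kilobase, and Flt4 had 45.1%, 19.6%, 30% and 33%, against 48.7%, 23.9%, 32.4% and 35.6%. Nrp1 had 93.3%, 87.3%, 83.5% and 82.4% of neuropilin reads, against 94.4%, 89.3%, 85.9% and 85%. Vegfa per kilobase had 85.1%, 9.32%, 24.3% and 38% of the ligands, and Vegfc 2.02%, 76.5%, 20.2% and 20.3%, where its shares of reads were 1.26%, 74.4%, 20.4% and 17.8%. Of the 27 genes nearest in profile, 13 were kept with a pseudocount of 0.1 and 12 with 2. The limits are 1 library per population, the unresolved label of the Prom1+CD49f+CD45+ library, and low counts of Pgf.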

Other observations

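Markers of further cell types were read as candidates for other RNA in these populations. Beside their counts, 15.5% of all genes were called higher and 12.7% lower in Prom1+CD49f+CD45- against Prom1-CD49f+CD45- cells. Against presorted cells these shares were 9.78% and 14.1% for Prom1-CD49f+CD45- cells and 23.8% and 12.1% for the Prom1+CD49f+CD45+ labelled library. Hepatocyte markers, 12 genes led by Trf, Alb and Hpx, summed to 10352 scaled CPM in Prom1+CD49f+CD45- cells, 6721 in Prom1-CD49f+CD45- cells, 831 in the Prom1+CD49f+CD45+ labelled library and 36985 in presorted cells. None was at 0 counts. The sum was higher in Prom1+CD49f+CD45- than in Prom1-CD49f+CD45- cells, but 7 of the 12 were called lower there and 2 higher. Their median log2 ratio in that comparison was -1.82, against 0.34 over all genes. The 12 stellate and pericyte markers, led by Dcn, Rgs5 and Ecm1, summed to 294, 949, 182 and 769 in the same order, with Ngfr at 0 in Prom1-CD49f+CD45- cells and in the labelled library. Portal fibroblast and mesothelial markers, 11 genes led by Cd34, Fbln2 and Gpm6a, summed to 341, 1404, 390 and 552. Cd34, which endothelium also expresses, held most of the sum in the labelled library and in presorted cells. Of the 11, 9 were called lower in the labelled library than in presorted cells and 0 higher. Thy1 was at 0 in Prom1+CD49f+CD45- cells and Wt1 in the labelled library. In Prom1-CD49f+CD45- against presorted cells, where Vegfc and Pgf were called higher, 8 of these 11 were called higher and 0 lower, and their part in those values was not tested.

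Blood cell markers differed by type. The 10 Kupffer cell and macrophage markers, led by Lyz2, Csf1r and Cd5l, summed to 90.7 scaled CPM in Prom1+CD49f+CD45- cells, 86.5 in Prom1-CD49f+CD45- cells, 142 in the Prom1+CD49f+CD45+ labelled library and 877 in presorted cells. Though the first 2 sums were close, 6 of the 10 were called lower in Prom1+CD49f+CD45- than in Prom1-CD49f+CD45- cells and 1 higher. In Prom1+CD49f+CD45- cells 4 of them were at or under background. Markers of other leukocytes, 10 genes led by S100a8, S100a9 and Nkg7, summed to 7.82, 16.5, 81.2 and 189 in the same order of libraries. Those at 0 included Cd3e, Ly6g and Itgax in Prom1+CD49f+CD45- cells and Cd3e in Prom1-CD49f+CD45- cells. The 8 megakaryocyte and platelet markers, led by Gng11, Itga2b and Pf4, summed to 30.6, 471, 292 and 240, and 5 of the 8 were called higher and 0 lower in Prom1-CD49f+CD45- against presorted cells. Gng11, which endothelium also expresses, held 426 of the 471 in Prom1-CD49f+CD45- cells. The 8 erythroid markers, led by Hba-a2, Hbb-bs and Car1, summed to 2.71, 69, 6.73 and 273, with Slc4a1 at 0 in both the Prom1+CD49f+CD45- and the Prom1-CD49f+CD45- cells. Near-identical globin genes can share reads.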
